A study of Mus musculus with 23 samples.

Results

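Embryos without p53 were set against wildtype embryos after the same control bath, in 8 of the 23 arrays of the series. The 4 arrays of p53 -/- (null) control pools and the 4 of p53 +/+ (wildtype) control pools were taken by their titles. Each array holds RNA from 3 to 7 whole mouse embryos of day 8.5, bred from p53 heterozygous parents, pooled by genotype and bathed for 10 minutes at 38 °C. The 4 heterozygous (p53 +/-) control pools are shown as a reference and give a score described below. Pools bathed at 43 °C (3 null, 4 wildtype) are used in closing comparisons. All 23 arrays, among them 4 heterozygous pools bathed at 43 °C, share in the normalization and in the estimate of spread. The sources used here do not give the null allele, the strain, the litters behind each pool or the time from bath to collection. Since no litter is named, a p-value speaks only of how the pools of this series spread. Each pool is bulk RNA, so fewer cells of a type and less RNA per cell cannot be told apart.

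p53, encoded by Trp53, is a transcription factor held at low levels in unstressed cells by the ubiquitin ligase Mdm2. DNA damage and other stress stabilise it, and it then binds paired copies of a short half-site and raises transcription of genes for cell cycle arrest, cell death, DNA repair and metabolism. Mouse embryos without p53 can develop to birth, and some females among them fail to close the neural tube over the brain. At the age studied here the neural folds are closing, the heart tube beats and primitive red cells enter the circulation.

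The promoters of 3 genes that were lower in null pools are shown because each holds at least 1 match to the p53 half-site, which is given in capitals. Ccng1 and Cdkn1a are long-known p53 targets, and Rap2b encodes a small GTPase that is also one. Each window runs from 250 bases before to 50 bases after a RefSeq start (build GRCm38.p6), in the gene's own direction.
Ccng1, chr11:40755237-40755536, minus strand: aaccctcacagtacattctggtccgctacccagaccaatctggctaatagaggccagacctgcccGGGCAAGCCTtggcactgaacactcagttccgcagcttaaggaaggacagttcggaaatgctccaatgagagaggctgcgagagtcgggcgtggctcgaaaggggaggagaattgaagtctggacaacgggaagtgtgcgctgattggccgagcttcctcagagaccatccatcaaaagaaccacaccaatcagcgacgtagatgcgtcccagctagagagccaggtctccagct
Cdkn1a, chr17:29090729-29091028, plus strand: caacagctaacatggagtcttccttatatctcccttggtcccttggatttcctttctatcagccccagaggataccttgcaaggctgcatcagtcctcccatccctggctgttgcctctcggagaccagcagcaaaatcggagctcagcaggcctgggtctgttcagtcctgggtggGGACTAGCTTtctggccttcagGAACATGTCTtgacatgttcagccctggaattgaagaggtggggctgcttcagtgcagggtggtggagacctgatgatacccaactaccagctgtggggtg
Rap2b, chr3:61364257-61364556, plus strand: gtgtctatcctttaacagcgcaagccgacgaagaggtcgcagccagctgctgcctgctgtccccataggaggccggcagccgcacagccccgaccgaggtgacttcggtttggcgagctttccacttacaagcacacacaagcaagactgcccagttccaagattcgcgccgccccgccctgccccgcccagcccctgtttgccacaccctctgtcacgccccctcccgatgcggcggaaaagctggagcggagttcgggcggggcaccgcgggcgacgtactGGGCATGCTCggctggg
The half-site of 10 letters reads the same on both strands, so 1 search covers both. It was present in 8.36% of all 32851 RefSeq windows and in 7.26% of the 13522 windows of genes tested. The share was 6.78% in the 634 windows of genes lower in null pools and 7.11% in the 478 windows of genes higher. A full site, meaning 2 half-sites at most 13 bases apart, was found in 24 of all windows (0.0731%). In the windows of genes tested it was found in 6 (0.0444%). Of those 6, 2 windows belonged to genes lower in null pools, Cdkn1a and the polarity gene Pard3, and 0 to genes higher in null pools. A match is a description of these letters only.

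The control arrays left 7576 to 11666 of 36227 probes empty, and 23753 probes had at least 3 values a side and were tested. Intensities are the authors' relative units after quantile normalization, floored on each array at its 5th percentile of positive values (0.366 to 0.389 on null arrays and 0.313 to 0.431 on wildtype arrays). No probe is annotated to Trp53 alone, so the deleted gene gave no check of the genotype labels. The highest deposited value of an array was 300 to 329 in null pools and 266 to 324 in wildtype pools B to D, while wildtype pool A stood apart at 193. Markers of a day 8.5 embryo (Sox2, Tbx6, Nkx2-5, Hbb-y, Afp, Foxd3 and Meox1) were read on all 8 arrays.

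The null pools differed from the wildtype pools at 1829 probes, which is 7.7% of those tested, at an adjusted p under 0.05 in limma. Of these, 798 were higher (3.36%) and 1031 lower (4.34%), and 5991 probes had an unadjusted p under 0.05. By gene, 1056 of 13408 passed (7.88%), with 429 higher (3.2%) and 627 lower (4.68%). The decreases were larger than the increases, with a median size of 0.80 on the log2 scale against 0.51, and 334 lower probes passed a difference of 1 against 21 higher probes. The null and wildtype arrays did not overlap at 1746 of the called probes, and at 5939 of all tested (25%). The number of calls rested on single arrays: it was 241, 553 and 443 without null pool B, C or D, and 837, 488, 728 and 409 without wildtype pool A, B, C or D. Of the 93 genes named by rule that passed, 58 no longer passed without null B, 46 without null C and 51 without null D.

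**Figure D1:**
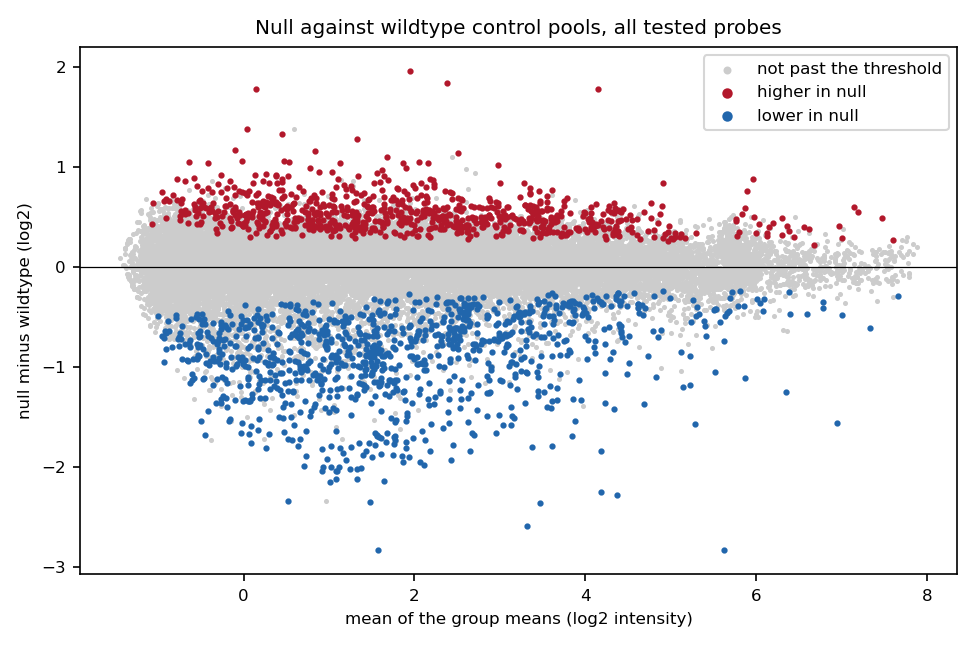
Difference null minus wildtype (log2, vertical) against the mean of the group means (log2 intensity, horizontal) for each tested probe, with probes past the threshold in red (higher in null pools) and blue (lower). Lower probes reach -2.83 and higher probes 1.96.

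The p53 targets divided into a few that were lower in null pools and a majority that did not pass. Of 67 tested targets 0 were higher and 6 lower (8.96%, against 4.68% of all genes), and their median difference was -0.08 against 0.04 over all genes. Those 6 were Ccng1, Cdkn1a, Fbxw7, Rap2b, Xpc and Gpx1. By role, 3 of 24 genes of arrest and feedback, 0 of 15 genes of cell death and 3 of 28 genes of repair and metabolism were lower. The targets were listed with earlier results of these data known, so these counts are descriptive.

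Ccng1, cyclin G1, a feedback regulator that recruits a phosphatase to Mdm2, read 1.58, 1.25, 1.49 and 1.41 in null pools A to D, against 3.49, 4.32, 4.08 and 4.05 in wildtype pools A to D. Every null pool lay below every wildtype pool, and the difference was -1.48 ± 0.19 (log2, SE; adjusted p = 0.00047 in limma). All 4 heterozygous pools, at 2.95, 2.19, 2.95 and 2.74, lay between the 2 groups. The call held under all 22 alternatives tried, with adjusted p up to 0.0042.

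Cdkn1a, which encodes the cyclin-dependent kinase inhibitor p21, read 1.44, 1.20, 1.47 and 1.07 in null pools and 6.08, 4.54, 5.6 and 4.69 in wildtype pools. The groups did not overlap (-2.02 ± 0.48, adjusted p = 0.02 in limma). The heterozygous pools fell into pairs, with 5.41 and 5.25 in A and B and 1.29 and 1.45 in C and D, so that A and B read like wildtype and C and D like null pools. Adjusted p was 0.056, 0.06 and 0.05 without null B, null D or wildtype D.

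Rap2b read 1.80, 1.65, 1.67 and 1.80 in null pools and 2.93, 2.54, 2.90 and 3.07 in wildtype pools, with no overlap (-0.72 ± 0.13, adjusted p = 0.0057 in limma). Fbxw7, the substrate receptor of a ubiquitin ligase that degrades cyclin E, differed by -1.21 ± 0.27 (adjusted p = 0.017), Xpc, which recognises DNA damage in nucleotide excision repair, by -0.76 ± 0.19 (0.023), and Gpx1, a glutathione peroxidase, by -0.44 ± 0.12 (0.035). These 3 were less firm, and leaving out 1 array ended the call of Fbxw7 without null C or D (adjusted p 0.052 and 0.058). It ended that of Xpc without any of 6 arrays (0.054 to 0.085) and that of Gpx1 without any of 7 (0.057 to 0.14), every one but null A and, for Xpc, wildtype C.

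Many familiar targets did not pass in unheated embryos. Mdm2, which read 0.552, 0.442, 0.738 and 0.389 in null pools and 0.661, 0.543, 0.537 and 0.561 in wildtype pools, overlapped between groups and lay near the floor (-0.16 ± 0.28, adjusted p = 0.76 in limma). Of the death genes, Bbc3 (Puma) differed by 0.11 ± 0.18 and Pmaip1 (Noxa) by -0.12 ± 0.26, with adjusted p of 0.74 and 0.81. Phlda3, an inhibitor of Akt, read 2.05, 2.03, 2.49 and 2.47 in null pools and 3.46, 2.83, 2.97 and 3.02 in wildtype pools without overlap, yet its difference of -0.45 ± 0.18 had an adjusted p of 0.13. Trp53i11 had 7.12, 7.91, 7.49 and 8.38 in null pools and 6.07, 6.35, 6.16 and 6.63 in wildtype pools (0.29 ± 0.11, adjusted p = 0.11). Trp53inp1, Sesn2, Zmat3 and Perp had differences of -0.01, -0.22, -0.18 and 0.04, with adjusted p from 0.11 to 0.97.

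**Figure D2:**
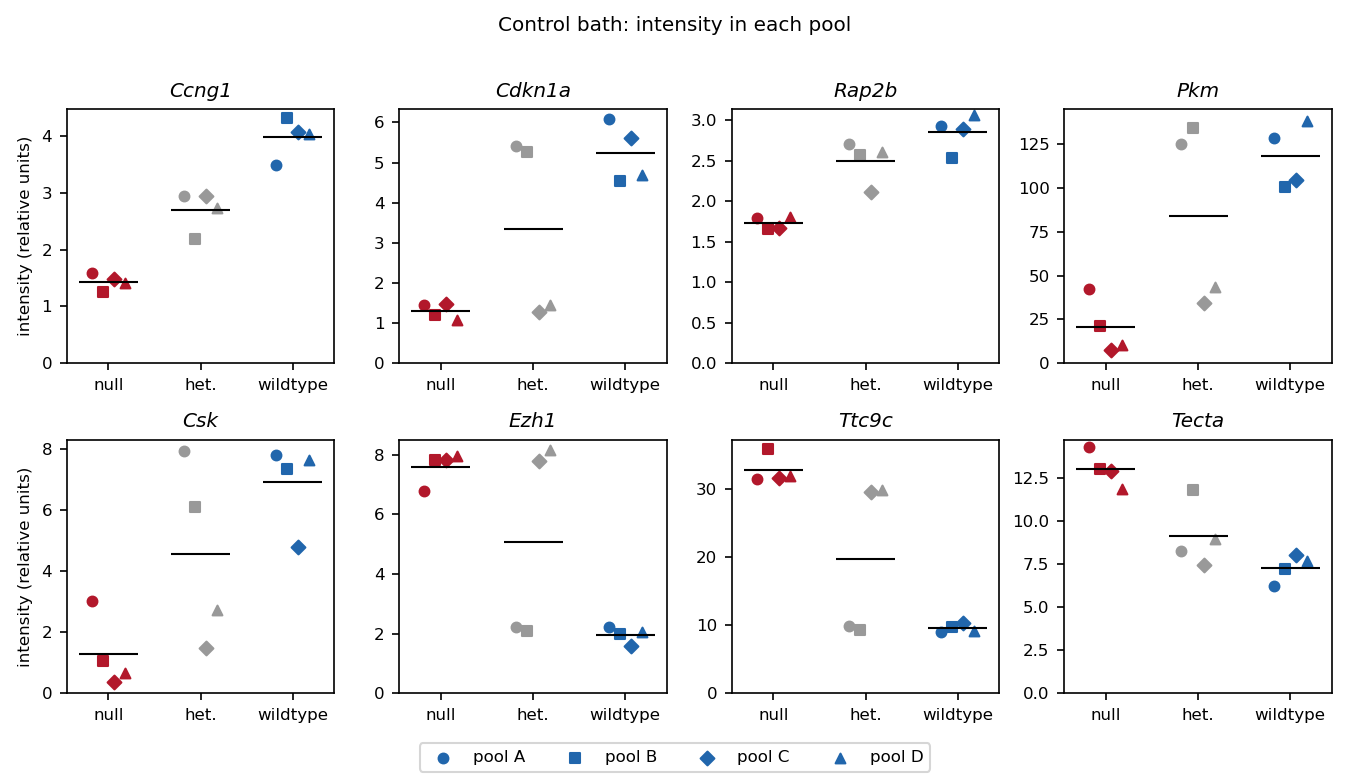
Intensity (relative units, linear axis from 0) of 8 genes in each null, heterozygous and wildtype control pool, with marker shapes for pools A to D and a bar at each group's mean. Ccng1 in heterozygous pools (2.19 to 2.95) lies between the groups, while Cdkn1a, Pkm, Csk, Ezh1 and Ttc9c divide the heterozygous pools in pairs.

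The largest increases past the threshold without overlap led with genes of chromatin, guidance and the cytoskeleton. Ezh1, a histone methyltransferase of the Polycomb group, read 6.79, 7.81, 7.80 and 7.95 in null pools and 2.22, 1.99, 1.58 and 2.04 in wildtype pools. Its difference was the largest increase among called probes, 1.96 ± 0.33 (adjusted p = 0.0051 in limma), with no overlap. Ttc9c, a tetratricopeptide repeat protein, read 31.5, 35.9, 31.7 and 32 in null pools and 9.02, 9.80, 10.3 and 9.18 in wildtype pools (1.78 ± 0.26, adjusted p = 0.0017). Plxna1, a receptor for semaphorins, read 2.21, 1.86, 1.88 and 2.25 in null pools and 0.52, 0.579, 0.765 and 0.538 in wildtype pools (1.78 ± 0.33, adjusted p = 0.0076). Rock1, a kinase that drives contraction of actomyosin, read 9.84, 8.28, 7.61 and 8.03 in null pools and 3.83, 3.61, 3.68 and 4.15 in wildtype pools (1.14 ± 0.23, adjusted p = 0.012). For each of these 4 genes the groups were well apart.

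These ranks are over named genes at their brightest probe without overlap, and dimmer probes of Dennd5b (1.84) and Lztfl1 (1.38), whose brighter probes did not pass, had larger differences than Rock1. Of the other 6 of the 10 largest increases by that rule, Celsr1, a cadherin of planar cell polarity, differed by 0.91 ± 0.19, the potassium channel gene Kcnk7 by 0.93 ± 0.19 and Fscn1, which bundles actin, by 0.88 ± 0.20. Rgr (an opsin of the retina), Stx2 (a syntaxin) and Pou5f2 (a POU-domain factor) differed by 1.05, 0.94 and 0.92. Adjusted p of these 6 ran from 0.012 to 0.024 in limma. Rgr rested on 2 wildtype values at the floor (0.408 and 0.431), beside 1 at 0.494. Leaving out 1 array ended the call of Fscn1 without null B or D (0.055 and 0.056), of Pou5f2 without null B, wildtype B or D (0.065 to 0.084), and of Rgr and Stx2 without null B, C or D or wildtype B or C (0.052 to 0.074).

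The largest decreases included enzymes, kinases and replication and splicing factors. Csk, the kinase that restrains Src, read 3.04, 1.05, 0.38 and 0.671 in null pools, where the value of pool C is at the floor, and 7.80, 7.34, 4.80 and 7.65 in wildtype pools (-2.83 ± 0.57, adjusted p = 0.012 in limma). Pkm, pyruvate kinase of the last step of glycolysis, read 42.4, 21.4, 7.71 and 10.5 in null pools and 129, 101, 104 and 138 in wildtype pools (-2.83 ± 0.56, adjusted p = 0.011). In both genes the null pools spread far more relative to their mean than the wildtype pools, with pool A nearest to wildtype. The SDs of intensity were not larger in null pools, at 1.20 against 1.41 for Csk and 15.7 against 18.4 for Pkm.

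Mcm7, a subunit of the replicative helicase, read 10.2, 4.09, 2.0 and 1.97 in null pools and 23.4, 20.9, 18.1 and 24.7 in wildtype pools (-2.60 ± 0.59, adjusted p = 0.017 in limma). Krt8, a keratin of simple epithelia, read 12, 5.11, 2.21 and 2.61 in null pools and 20.2, 24.4, 20.3 and 24.9 in wildtype pools (-2.37 ± 0.58, adjusted p = 0.021). Null pool A was again the highest null pool in both genes. Prkaca (the catalytic subunit of protein kinase A), Sec61a1 (the channel of the endoplasmic reticulum) and Ddx6 (an RNA helicase of P bodies) differed by -2.34, -2.14 and -2.12, and Sf1, Srsf2 and H2ax by -2.36, -2.28 and -2.25. Of the null values of Prkaca (1.09, 0.80, 0.38 and 0.389), those of pools C and D are at the floor. Ddx6 was uniform within each group, at 1.47, 1.33, 1.13 and 0.924 in null pools and 5.21, 5.35, 5.38 and 4.91 in wildtype pools. Srsf2, a splicing factor, has a second, dimmer probe with a difference of -0.02 (adjusted p = 0.94 in limma), so its probes disagree. The calls of Mcm7, Krt8, Srsf2, H2ax and Sf1 were lost without null B, C or D, and those other than Mcm7 also without 1 or 2 wildtype arrays, with adjusted p from 0.05 to 0.074 over these 5 genes, and that of Ddx6 without null B or D (0.052 and 0.056).

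The heterozygous control pools did not form 1 group on these probes. On a scale where 0 is the wildtype mean and 1 the null mean, the median position of the called probes was 0.011 in heterozygous pool A, -0.063 in B, 0.80 in C and 0.68 in D. The percentage of called probes nearer the null mean was 13 in A, 7.44 in B, 85.5 in C and 73.4 in D. Ezh1 read 2.22, 2.10, 7.79 and 8.17 in heterozygous pools A to D, Ttc9c 9.91, 9.35, 29.6 and 29.9, and Pkm 125, 134, 34.5 and 43.5. Thus pools of 1 labelled genotype differed among themselves on these probes by about as much as null from wildtype pools. The called probes were chosen by the difference between null and wildtype, so these positions are a description.

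**Figure D3:**
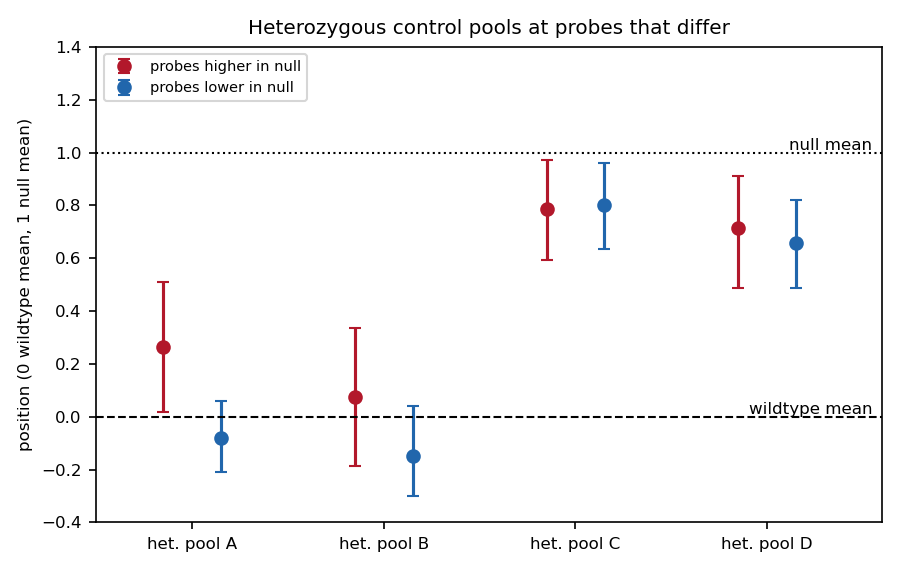
Position of each heterozygous control pool on the called probes (0 is the wildtype mean, 1 the null mean), as median and quartiles, for probes higher and lower in null pools. Pools A and B lie near the wildtype mean and pools C and D near the null mean.

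The same direction ran through the control arrays as a whole. The first component of the 12 control arrays held 54.5% of their variance, with null pools at 10.9 to 36.9, heterozygous C and D at 23.1 and 16.6, wildtype pools at -12.5 to -29.0 and heterozygous A and B at -28.9 and -35.3. A score was also built from the 4 heterozygous control arrays alone, whose first component held 80.2% of their variance. On it null pools lay at 14.8 to 35.3 and wildtype pools at -22.5 to -2.53. With this score as a covariate 12 probes passed (0.0505%), 7 higher and 5 lower in null pools, and 89 of the 93 named calls were lost. The named genes among the 12 were Ccng1, Pcyt2, Ttc9c, Tecta, Dennd5b, Lztfl1 and Bcl9. Dennd5b, Lztfl1 and Bcl9 passed at a dimmer probe, and the brightest probe of each did not pass with the score. The score moves with genotype among the null and wildtype pools, so the 2 cannot be told apart here, and what sets it was not tested.

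With the score in the fit, Ccng1 kept a difference of -1.57 ± 0.23 (adjusted p = 0.0042 in limma), close to its value without it. Ttc9c kept 1.15 ± 0.20 (adjusted p = 0.023) and Pcyt2, an enzyme of phosphatidylethanolamine synthesis, -0.95 ± 0.16 (0.016). Tecta, alpha-tectorin of the inner ear's membranes, had 0.93 ± 0.17 (adjusted p = 0.045). Ezh1 had 1.14 and Cdkn1a an adjusted p of 0.47, and neither passed.

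Apart from single arrays and scalings, 185 probes (62 higher and 123 lower in null pools, 97 genes) passed under each of 13 settings that left out 1 array, changed the normalization or changed the arrays in the fit. The 15 genes of smallest p among them included Ccng1, Ezh1 and Ttc9c. Pcyt2 read 1.13, 0.925, 0.877 and 0.757 in null pools and 2.22, 2.50, 2.42 and 2.30 in wildtype pools, with no overlap (-1.37 ± 0.19, adjusted p = 0.00078 in limma). Dusp28, a phosphatase, read 1.14, 0.952, 0.823 and 1.03 in null pools and 1.79, 1.75, 2.20 and 1.85 in wildtype pools (-0.95 ± 0.14, adjusted p = 0.0027). Lama5, a laminin chain of basement membranes, read 13.2, 14.7, 13.6 and 13.2 in null pools and 9.60, 8.71, 9.23 and 9.52 in wildtype pools (0.56 ± 0.09, adjusted p = 0.0044). The 4 null pools lay closer together in these genes than in Csk, Pkm, Mcm7 or Krt8.

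Also lower in this set were Yrdc, which modifies transfer RNA (-0.69), Lman1, a cargo receptor between endoplasmic reticulum and Golgi (-0.95), the sialyltransferase St3gal2 (-1.13), the ubiquitin ligases Nosip (-0.67) and Trim56 (-1.55). Higher were the calcium channel Trpv6 (0.80), the homeobox gene Hmbox1 (0.81), Ticrr, which starts DNA replication (0.66), and 5430440P10Rik (0.83). Adjusted p of these 9 genes ran from 0.0044 to 0.0055 in limma. Trim56 had null values of 0.477, 0.383 and 0.38, of which those of pools B and C are at the floor. Lman1 and Hmbox1 each have another probe that did not pass, with differences of 0.06 and -0.21.

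Cell cycle genes past the threshold were few in number, though the share lower was above that of all genes. The shares over all genes tested were 4.68% lower and 3.2% higher. Of 34 genes of the G1/S transition and replication 3 were lower (Mcm7, Ccnd3 and Cdk2, 8.82%) and 0 higher. The median difference of this list was 0.09. Cyclin D3, Ccnd3, differed by -1.13 ± 0.31 and the kinase Cdk2 by -0.73 ± 0.22. Of 36 genes of G2 and mitosis 3 were lower (8.33%) and 1 higher (2.78%). The lower genes were the spindle checkpoint kinase Bub1b (-1.49 ± 0.36), the kinesin Kif2c (-1.15 ± 0.31) and Aurka (-0.60 ± 0.19). The higher gene was the separase Espl1 (0.44 ± 0.11). A second Aurka probe had -0.09 and did not pass. Adjusted p of these 6 genes ran from 0.02 to 0.049 in limma, and each lost its call without at least 5 of the 8 arrays, null D among them (0.051 to 0.17). Of 13 replication-dependent histone genes 3 were lower (23.1%, against 4.68% of all genes) and 12 had a difference below 0, with a median of -0.32. The summed level of 10 of them was 12.3 to 14.2 in null pools and 17.2 to 20.1 in wildtype pools, with no overlap. H3c4 read 1.39, 1.30, 1.05 and 0.959 in null pools and 2.41, 2.55, 2.6 and 2.0 in wildtype pools (-1.03 ± 0.19, adjusted p = 0.0071), with no overlap. H2ac8 (-1.34) lost its call without null B (0.055), and H4c4 (-0.72) without any of 7 arrays (0.061 to 0.077).

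In the cell death machinery 2 of 20 genes were higher (10%, against 3.2% of all genes) and 2 lower (10%, against 4.68%). Over the list 10 genes had a difference above 0 and 10 below. Bcl2l2, which protects from death, read 13.8, 13.6, 12.5 and 12.5 in null pools and 7.67, 8.01, 7.70 and 8.27 in wildtype pools (0.73 ± 0.16, adjusted p = 0.015 in limma). Casp9, the initiator caspase of the mitochondrial route, was higher by 0.69 ± 0.18 (adjusted p = 0.025). The effector Bak1 and Bcl2l11 (Bim), which activates it, were lower, with differences of -0.48 ± 0.13 and -0.37 ± 0.11 (adjusted p = 0.027 and 0.04). Without null B, adjusted p of Bcl2l2 was 0.052, and the other 3 calls were lost without any of 6 or 7 arrays (0.051 to 0.14). The higher genes thus included a gene against death and a gene for it, while both lower genes act for it.

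For neural tube closure, 4 of 30 genes were higher (13.3%, against 3.2% of all genes) and 2 lower (6.67%, against 4.68%). Celsr1 read 3.26, 4.31, 4.66 and 4.95 in null pools and 2.19, 2.11, 2.27 and 2.45 in wildtype pools, with no overlap (adjusted p = 0.013 in limma). The Dishevelled genes, which pass on Wnt and polarity signals, went opposite ways. Dvl2 was higher by 0.56 ± 0.16 (adjusted p = 0.035) and Dvl1 had -1.16 ± 0.29 (0.023). Of 27 genes of neural tube and brain 2 were higher (7.41%), Pax6 (0.49 ± 0.14) and Rax (0.60 ± 0.18). The 1 lower gene (3.7%) was Otx2 (-0.95 ± 0.27). Pax6, Rax and Otx2 are factors of eye and forebrain. Otx2 read 7.75, 7.21, 6.34 and 4.28 in null pools and 12.4, 11.4, 12.2 and 12.1 in wildtype pools. Casp9, Dvl1, Dvl2, Pax6, Rax and Otx2 each lost the call without at least 6 of the 8 arrays (0.055 to 0.13). Msx1 in neural crest (0.47 ± 0.11, adjusted p = 0.02) and Aldh1a2, the retinoic acid enzyme of mesoderm (0.71 ± 0.18, adjusted p = 0.022), were the 1 higher gene of 19 (5.26%) and of 23 (4.35%). Each share rests on 1 gene, beside 3.2% of all genes. Msx1 lost its call without null B or D or wildtype B or D (0.052 to 0.062), and Aldh1a2 without null B, C or D or wildtype C or D (0.05 to 0.07).

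Genes of heart, blood and vessels past the threshold were mostly lower, though over all 26 vessel genes 15 had a difference above 0 and 11 below (median 0.10). Over all genes tested 4.68% were lower and 3.2% higher. In heart muscle 4 of 29 genes were lower (13.8%), none was higher, and 22 had a difference below 0. Popdc2, a membrane protein of heart muscle, read 1.32, 0.768, 0.741 and 0.697 in null pools and 3.00, 2.57, 2.38 and 3.42 in wildtype pools (-1.73 ± 0.36, adjusted p = 0.013 in limma). The others were Hspb7 (-0.95), Gata6 (-0.68) and Isl1 (-0.53), a small heat shock protein of muscle and 2 heart factors. The summed level of 26 heart genes read on all 8 arrays was 331 to 368 in null pools and 363 to 413 in wildtype pools. Gata6 has a second probe with -0.04, which did not pass. Hspb7, Gata6 and Isl1 lost their calls without at least 6 of the 8 arrays (0.052 to 0.15).

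In primitive red cells 3 of 20 genes were lower (15%) and none was higher. Klf1, the erythroid master factor, read 0.786, 0.527, 0.38 and 0.627 in null pools and 1.32, 1.35, 1.15 and 1.02 in wildtype pools (-1.10 ± 0.22, adjusted p = 0.011 in limma), with null C at the floor. The erythropoietin receptor Epor differed by -0.92 ± 0.21 (adjusted p = 0.017, and 0.072 without null B, the pool at the floor), and Urod of haem synthesis by -0.34 ± 0.10 (adjusted p = 0.041). Among 26 endothelial genes 3 were lower and Notch1 was higher (0.42 ± 0.12). The claudin Cldn5 read 5.91, 3.45, 3.83 and 2.68 in null pools and 8.43, 8.22, 12.8 and 8.95 in wildtype pools (-1.31 ± 0.28, adjusted p = 0.013). Cd34 and Pecam1 differed by -1.17 and -0.88, with adjusted p of 0.017 and 0.024. Urod lost its call without any of 7 arrays (0.066 to 0.13), Notch1 and Pecam1 without any of 6 (0.05 to 0.13), and Cd34 without null B, C or D or wildtype D (0.051 to 0.057).

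Tissues outside the embryo proper showed no gene past the threshold. Of 27 yolk sac and visceral endoderm genes 0 passed, though 21 had a difference below 0, and the sum of 22 of them was 224 to 374 in null pools against 312 to 452 in wildtype pools. Of 14 trophoblast and decidua genes 0 passed, and their sum of 10 was 60.0 to 65.6 in null pools and 59.8 to 76.4 in wildtype pools. The part of these tissues in the differences above was not tested. Of 3 immune genes tested 0 passed. Of the Y-linked genes, Usp9y was lower (-0.52 ± 0.11, adjusted p = 0.012 in limma) while Eif2s3y (-0.54 ± 0.81) and Kdm5d (-0.06 ± 0.17) did not pass. Eif2s3y ran from 2.39 to 7.52 in null pools and from 3.77 to 13.3 in wildtype pools, and the groups overlapped.

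**Figure D4:**
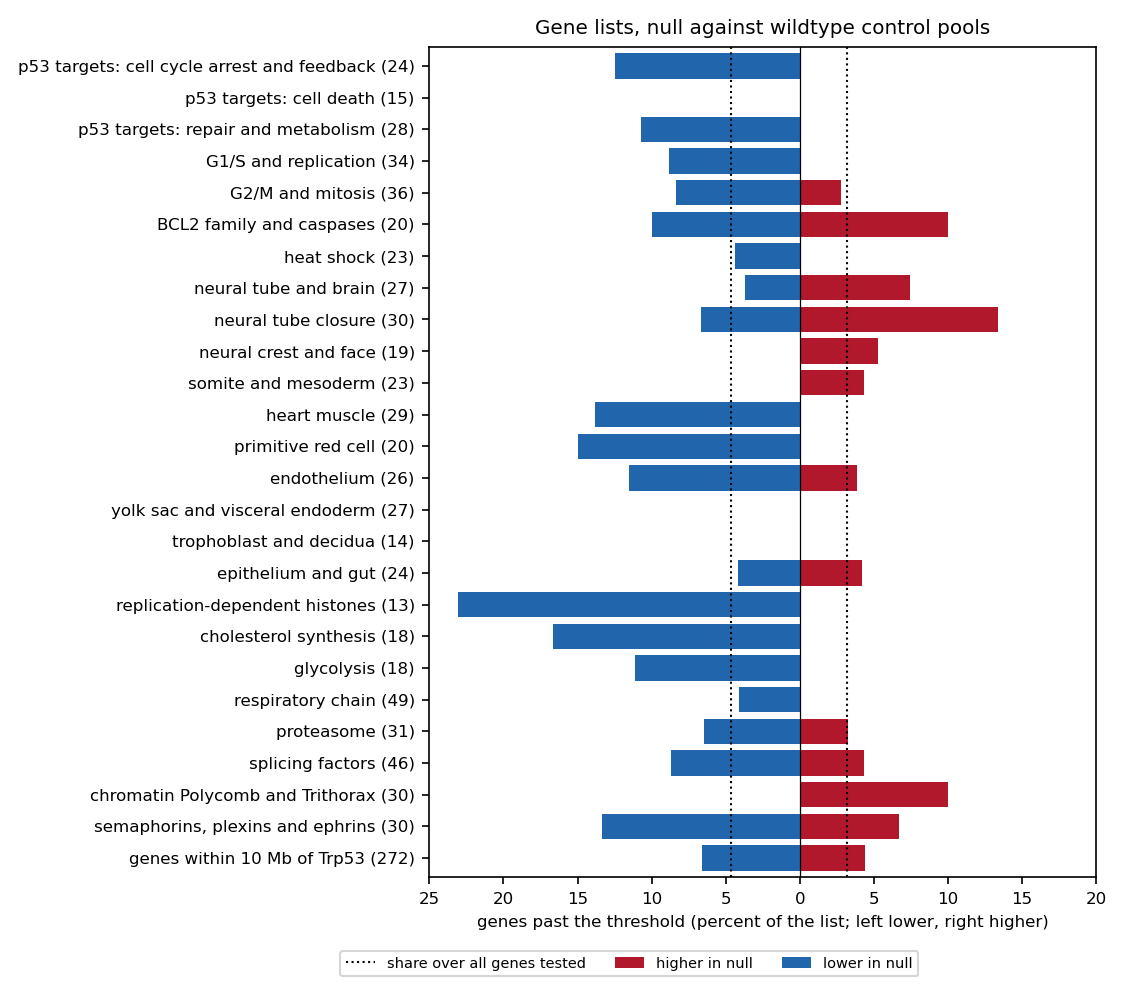
Percentage of each gene list shown that passed the threshold (number tested in brackets), lower in null pools to the left and higher to the right, with dotted lines at the shares over all genes tested (4.68% lower, 3.2% higher). Histone genes reach 23.1% lower and neural tube closure 13.3% higher.

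In housekeeping pathways single genes passed. Over all genes tested 4.68% were lower and 3.2% higher, and the respiratory chain (4.08% lower) and the proteasome (6.45% lower, 3.23% higher) lay near those shares. The shares lower in glycolysis and cholesterol synthesis were above that of all genes, though the median differences of these lists were 0.08 and -0.02. In glycolysis 11 genes had a difference above 0 and 7 below, and in cholesterol synthesis 9 and 9. In glycolysis 2 of 18 genes were lower (11.1%), Pkm and Bpgm (-0.55 ± 0.16). In cholesterol synthesis 3 of 18 were lower (16.7%), Hsd17b7 (-1.06), Sqle (-1.07) and Mvk (-0.71). Of 49 genes of the respiratory chain 2 were lower, Ndufa10 (-0.54) and Cox6a1 (-0.29), and 0 were higher. The proteasome gave 2 lower genes, Psmd11 (-0.40) and Psmd13 (-0.39), and 1 higher, Psmd3 (0.48), of 31. Of 46 splicing factors 4 were lower (8.70%), with Srsf2, Sf1 and Sf3a2 (-1.06) named, and 2 were higher (4.35%), with Hnrnpl (0.55) named. Adjusted p of those named here other than Pkm, Srsf2 and Sf1 ran from 0.02 to 0.046 in limma, and each lost its call without at least 3 of the 8 arrays (0.05 to 0.16).

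Chromatin genes of the Polycomb and Trithorax groups gave 3 higher of 30 (10%, against 3.2% of all genes) and 0 lower (against 4.68%). Over the list 15 genes had a difference above 0 and 15 below. Beside Ezh1 the higher genes were Chd8, a remodeller (0.28 ± 0.07, adjusted p = 0.022 in limma), and Phc1, a Polycomb subunit (0.47 ± 0.14, adjusted p = 0.049). Chd8 lost its call without any of 5 arrays (0.055 to 0.067) and Phc1 without any of the 8 (0.063 to 0.12). Outside that list, Tln1 and Pfn1, which act on actin, were higher. Talin, Tln1, which couples integrins to actin, read 9.90, 10.7, 11.2 and 10.7 in null pools and 7.95, 6.55, 7.89 and 7.77 in wildtype pools (0.49 ± 0.10, adjusted p = 0.01). Profilin, Pfn1, differed by 0.49 ± 0.10 (adjusted p = 0.013, and 0.05 without null B).

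Among semaphorins, plexins and ephrins 2 of 30 genes were higher (6.67%, against 3.2% of all genes) and 4 lower (13.3%, against 4.68%). Over the list 15 genes had a difference above 0 and 15 below. Ephb4, a receptor of veins, read 4.74, 2.90, 2.96 and 2.02 in null pools and 9.36, 9.65, 7.57 and 9.20 in wildtype pools (-1.56 ± 0.33, adjusted p = 0.013 in limma). Nrp1, a receptor for semaphorins and vascular growth factor, differed by -0.94 ± 0.24 (adjusted p = 0.023) and Epha7 by 0.51 ± 0.12 (0.018). Nrp1 lost its call without any of 6 arrays (0.054 to 0.09) and Epha7 without null B or wildtype B or D (0.051 to 0.061).

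Genes that lie near Trp53 were looked at because a null chromosome can carry its neighbours from the strain in which it was made. Of 272 tested genes within 10 Mb of Trp53, 12 were higher (4.41%) and 18 lower (6.62%), against 3.2% and 4.68% of all genes. Nf1, a Ras inhibitor, read 5.40, 6.46, 5.43 and 6.53 in null pools and 4.29, 4.41, 4.25 and 4.34 in wildtype pools (0.46 ± 0.09, adjusted p = 0.011 in limma). Neurl4 differed by 0.45 ± 0.10 and the mitochondrial carrier Slc25a11 by -0.73 ± 0.17, both at an adjusted p of 0.017. Another Neurl4 probe had -0.15 and did not pass. Slc25a11 lost its call without null B, null D or wildtype D (0.052 to 0.063) and Neurl4 without null B or wildtype B or D (0.051 to 0.057).

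The heat pools share no array with the control pools and were compared the same way. There 123 probes passed (0.518%), with 70 lower (0.295%) and 53 higher (0.223%) in null pools. Of the probes lower in null control pools, 76.8% were also below 0 in heat pools, against 52.7% of all tested, and of those higher, 50% were above 0, against 47.3%. The difference itself, heat minus control, passed at 203 probes (0.855%), 129 of them called in the control bath. The same control values enter that difference and the control calls, so a high share of control calls among the 203 is built in. The control and heat comparisons shared 13 calls of the same direction, 7 lower and 6 higher. These 13 are 0.711% of the control calls and 10.6% of the heat calls, and 9 have a gene name. Another 5 probes passed in both baths in opposite directions. Ccng1 differed by -2.73 ± 0.21 in heat pools and Cdkn1a by -2.99 ± 0.52 (adjusted p = 8.3e-08 and 0.0089 in limma).

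Dennd5b, which acts on Rab GTPases, gave the smallest p of the control comparison at its dimmer probe. That probe read 10.7, 10.5, 9.07 and 8.93 in null pools and 2.39, 2.74, 2.79 and 3.07 in wildtype pools, with heterozygous pools at a mean of 5.61 ± 1.07 (SD, n = 4). The difference was 1.84 ± 0.13 (adjusted p = 2.1e-08 in limma), and in heat pools 1.78 ± 0.14 (8.3e-08). The brighter probe of the gene had -0.15 ± 0.13 (adjusted p = 0.49), so the 2 probes disagree. Tecta read 14.3, 13, 12.9 and 11.9 in null pools and 6.22, 7.22, 8.01 and 7.69 in wildtype pools (0.84 ± 0.15, adjusted p = 0.0055), and 1.29 ± 0.16 higher in heat pools. The other shared genes were Kif1a (0.54), Rpp40 (0.55) and Ltbp4 (0.40), which were higher, and Bloc1s2 (-0.34) and Pa2g4 (-0.44), which were lower, a kinesin, an RNase P subunit, a binder of latent TGF-beta, a lysosome trafficking factor and a growth regulator. The shared genes were picked after their values were seen.

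**Figure D5:**
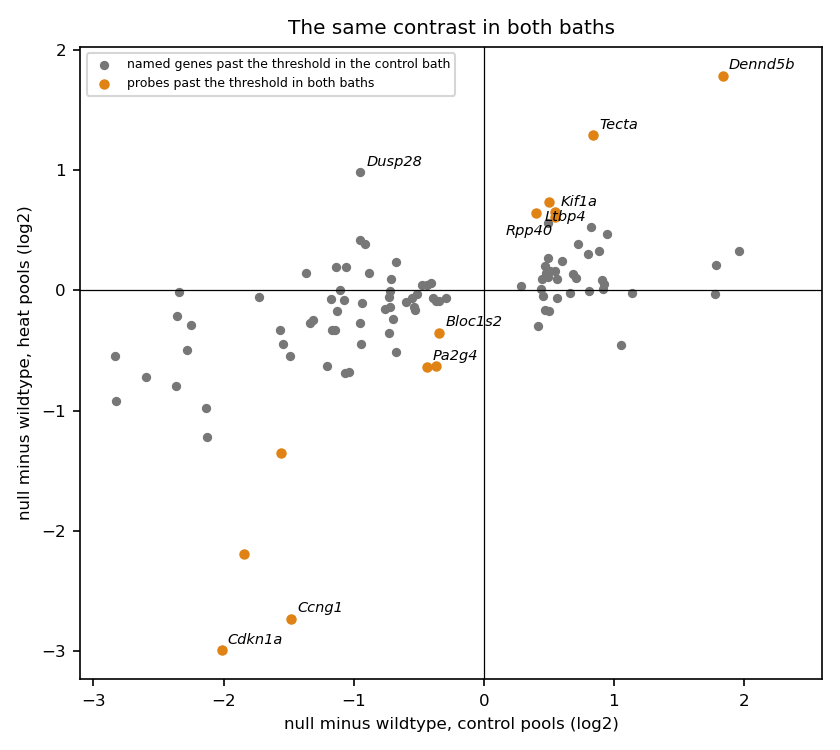
Difference null minus wildtype (log2) in control pools (horizontal) and in heat pools (vertical) for named genes past the threshold in the control bath, with probes past it in both baths in orange. Ccng1 and Cdkn1a lie at -1.48 and -2.02 in control pools and at -2.73 and -2.99 in heat pools, while Pkm and Csk lie near -2.83 in control pools and above -1 in heat pools.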

How the data were processed

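The deposited intensities come from CodeLink 1-colour arrays of biotin-labelled cRNA read with Alexa-647 streptavidin, per the labels. The sources used here do not give the scanner, the background step, the scaling or any spot filter. Empty cells and the code -9999 were missing. Values were floored at each array's 5th percentile, taken to log2 and quantile normalized on the 18702 probes read on all 23 arrays. A probe needed 3 values a side. limma 3.58.1 (R 4.3.3; lmFit, eBayes with trend) fitted 6 group means over 23 arrays, two-sided, with Benjamini-Hochberg adjustment over 23753 probes and a threshold of 0.05. Errors are SEs of log2 differences or SDs of intensities. The script was tested on simulated data. Gene names are those of GEO's platform annotation, brought up to date with RefSeq (assembly GRCm38.p6). A single symbol is given for 21615 probes, of which 21487 were found by gene ID, several for 681 and none for 13931. A gene is its probe of highest mean.

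The text names the 10 largest increases and decreases without overlap, up to 4 called members of a list (2 of smallest p where none passed), up to 15 genes that passed 13 settings, up to 12 that passed with the heterozygous score, and a fixed set of p53 targets, sex markers and leading genes. Members and lists were chosen with earlier results of these data known, and no list was tested as a set; 1 list is not reported here. Alternatives changed the scaling, floor, filters, arrays, weights, covariates and replicate letters. Pool letters did not pair null with wildtype pools (deviations of same-letter pools correlated at 0.255, -0.028, -0.015 and 0.015). The number of arrays limits the precision.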

Additional observations from a re-analysis of the deposited data

Results flagged for a closer look

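Among 209 groups of 4 control pools of the named genes, 8 had 1 pool far from the others, where chance flags about 1 in 20. Null pool A was the outlying pool in 3 of them: Ezh1 read 6.79 against 7.80 to 7.95 in the other null pools, Popdc2 1.32 against 0.697 to 0.768 and Hnrnpl 151 against 183 to 188. In null pool B Ttc9c read 35.9 against 31.5 to 32. In wildtype pool C Csk read 4.80 against 7.34 to 7.80 and Aldh1a2 7.06 against 9.89 to 9.96. Cd14 read 0.89 in wildtype A against 1.03 to 1.04 in the other wildtype pools, and Tln1 6.55 in wildtype B against 7.77 to 7.95.

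For 11 named genes the difference between null and wildtype pools was not the same in the 2 baths (adjusted p under 0.05 in limma for the difference of differences, heat minus control; 203 of all probes passed, 0.855%). Most named genes were chosen by their control values, which also enter this difference, so their share cannot be set against that of all probes. The difference of differences was below 0 for Ttc9c (-1.81), Phlda3 (-1.29), Ccng1 (-1.25), Bbc3 (-1.12), Lama5 (-0.63) and Zmat3 (-0.47). It was above 0 for Dusp28 (1.93, adjusted p = 0.00015), Pcyt2 (1.51), St3gal2 (1.33), Epor (1.30) and Nosip (0.91). Dusp28 was lower in null control pools (-0.95) and higher in null heat pools (0.98).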

How the results depend on the processing

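The main count of 1829 probes stayed within 1.5 times under median centring, the values as deposited (1249), quantile normalization with empty cells at random, the 12 control arrays, a filter on low values, values on all 8 arrays, another floor and no intensity trend. It moved to 4661 with only the 8 arrays in the fit, 5489 with array weights, 1115 with each array's highest value as a covariate and 12 with the heterozygous component score as a covariate. Leaving out 1 array in turn gave 241 to 1918, with the lowest count without null B. A replicate block on the pool letters gave 2838, although the letters do not pair these pools. Leaving out the heterozygous control arrays, chosen after seeing the data, gave 2691. No called gene named here changed sign under these 22 settings. Among named genes that had not passed, 9 changed sign, in no case past the threshold. With the component score Bbc3 became -0.0514, Cd14 0.0123, Dennd5b (brighter probe) 0.135, Gapdh -0.0235, Laptm5 -0.0856, Perp -0.222, Pmaip1 0.00665 and Trp53inp1 0.234. With the highest value as covariate Laptm5 was -0.0409, Perp -0.0941 and Trp53inp1 0.107. Quantile normalization with empty cells at random gave Laptm5 -0.052 and Perp -0.00808, and array weights gave Laptm5 -0.00606 and Trp53inp1 0.0542. Trp53inp1 was 0.0303 with median centring and 0.0165 as deposited. Leaving out 1 array gave Gapdh -0.0276 to 0.126, Laptm5 -0.109 to 0.155, Perp -0.0309 to 0.113, Trp53inp1 -0.0963 to 0.0629 and Kdm5d -0.145 to 0.0427. The share of called probes that were higher was 43.6%. It was 32% without null B and 58.3% of the 12 probes with the component score, and moved by under 10 points otherwise. The cause of these shifts was not tested.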

Other observations

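Some probes were empty in at least 3 of the 4 pools of 1 genotype and read in at least 3 of the other, and so entered no test. Of these, 671 were empty in null pools and read in wildtype pools, 344 with a gene name, among them the embryonic globin Hba-x at a mean of 182, the ribosomal protein gene Rpl14 at 125 and Hoxb1 at 29.3. The reverse held for 322 probes, 165 with a name, with Calm2 (275.0), Mdk (269) and Eef1d (266) the brightest named genes in null pools. An empty cell can stand for a dim or a very bright spot in these columns, so no direction is given.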
